A study of Homo sapiens with 6 samples.

Results

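The genes described here are the ligands, receptors, intracellular relays and feedback genes of the Wnt pathway. These 52 genes were named by symbol out of the 25445 rows of the count table. The rule sets no threshold on a measured value, but the list was chosen with earlier results of these data known. The 52 genes comprise 13 WNT ligands, 2 genes for ligand release, 9 Frizzled receptors, 5 co-receptors, the R-spondin receptor LGR4, 7 genes of the destruction complex and Dishevelled, 4 TCF factors, 9 feedback targets of β-catenin and 2 other secreted antagonists. MHCC-97H, an established human liver cancer line of high metastatic potential, was cultured for 16 h with 10 μM of compound 6j, a sophoridine derivative, or with solvent, and poly(A) RNA was sequenced from 3 libraries of each group. The comparison asked how the Wnt genes of 6j treated cells stood against those of non-treated cells, with the feedback targets set against the ligands. The labels do not say whether the 3 libraries of a group came from separate cultures, so the p-values measure the spread among these 6 libraries of 1 line, which may be technical.

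Total counts ran from 31533403 to 37919879 in the non-treated libraries and from 35002336 to 38018349 in the 6j treated libraries. The hepatocyte markers were largely absent from this line: 10 of 14 had under 10 counts in every library, with ALB (albumin) at 0 to 8 counts, AFP at 0 to 7 and TTR at 0, while the keratins KRT8 and KRT18 lay between 320.03 and 653 CPM (counts scaled to library size with edgeR's TMM factors). The summed level of the 14 markers, nearly all keratin, was 905 to 1110.2 CPM in non-treated and 706 to 825 CPM in 6j treated libraries, and its part in the results was not tested. Of the leukocyte markers PTPRC and CD3E had no count, CD14 had 9 to 33 counts, and CD68, a lysosomal protein of macrophages and other cells, lay at 39.8 to 70.5 CPM, so that the summed level was 40.4 to 70.8 CPM in non-treated and 42.5 to 53.1 CPM in 6j treated libraries. The summed fibroblast and stellate cell markers, mostly COL1A1, overlapped between groups, at 278 to 335 against 253 to 321 CPM. COL1A1 lay at 203 to 275 CPM and COL3A1 at 25.9 to 47.8 CPM, while COL1A2 had no count and DCN and LUM had at most 7 and 6 counts. The summed endothelial markers also overlapped, at 2.18 to 6.25 against 1.86 to 4.03 CPM. The summed cholangiocyte markers, nearly all KRT7, did not overlap, at 441 to 552 against 402 to 417 CPM, and their part in the results was not tested either. In bulk RNA, fewer cells of a kind and less RNA per cell cannot be told apart.

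Wnt ligands are lipid-modified in the secreting cell, carried out by a dedicated transporter, and bind a Frizzled receptor together with LRP5 or LRP6. This recruits Dishevelled and stalls the destruction complex of AXIN, APC and GSK3B, so that β-catenin accumulates, enters the nucleus and joins a TCF or LEF factor on its target genes. Several targets, such as AXIN2, NKD1, NOTUM and ZNRF3, restrain the pathway in turn, and in liver this circuit is known for zonation, regeneration and frequent mutation in hepatocellular carcinoma.

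Most of the 52 genes were expressed, and the 3 most abundant per length were intracellular relays rather than ligands or feedback genes. A count in at least 1 library was found for 51 of the 52 genes, and 40 passed the filter on low counts and were tested. The 12 that did not pass were 5 ligands, 2 TCF factors, 4 feedback targets and 1 other antagonist. Levels of different genes are compared per length, as mean CPM per kb of merged exons in non-treated cells. On that scale DVL1 stood highest at 34.9, followed by CTNNB1 at 29.2 and DVL2 at 25.02, whereas the highest ligand, WNT5A, stood at 8.40 and the highest feedback target, DKK1, at 3.44. High levels were not limited to relays. LRP5 at 22.3, FZD6 at 20.5, LGR4 at 17.4 and WLS at 16.6 stood above GSK3B at 15.4, while the relays APC and AXIN1 stood at 7.80 and 7.15. AXIN2, the feedback gene most often used as a readout of β-catenin activity, stood at 0.0449. All 9 Frizzled genes and all 5 co-receptors among the 52 passed the filter, as did both genes for ligand release. Of the Frizzled and WNT genes outside the 52, WNT16 passed the filter, and FZD10, WNT1, WNT2, WNT8A, WNT8B and WNT9B did not. FZD10 had 2 counts in 6j treated replicate 3 and none elsewhere. The summed level of the 52 genes was 1988 to 2043 CPM in non-treated and 2046 to 2054 CPM in 6j treated libraries.

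**Figure D1:**
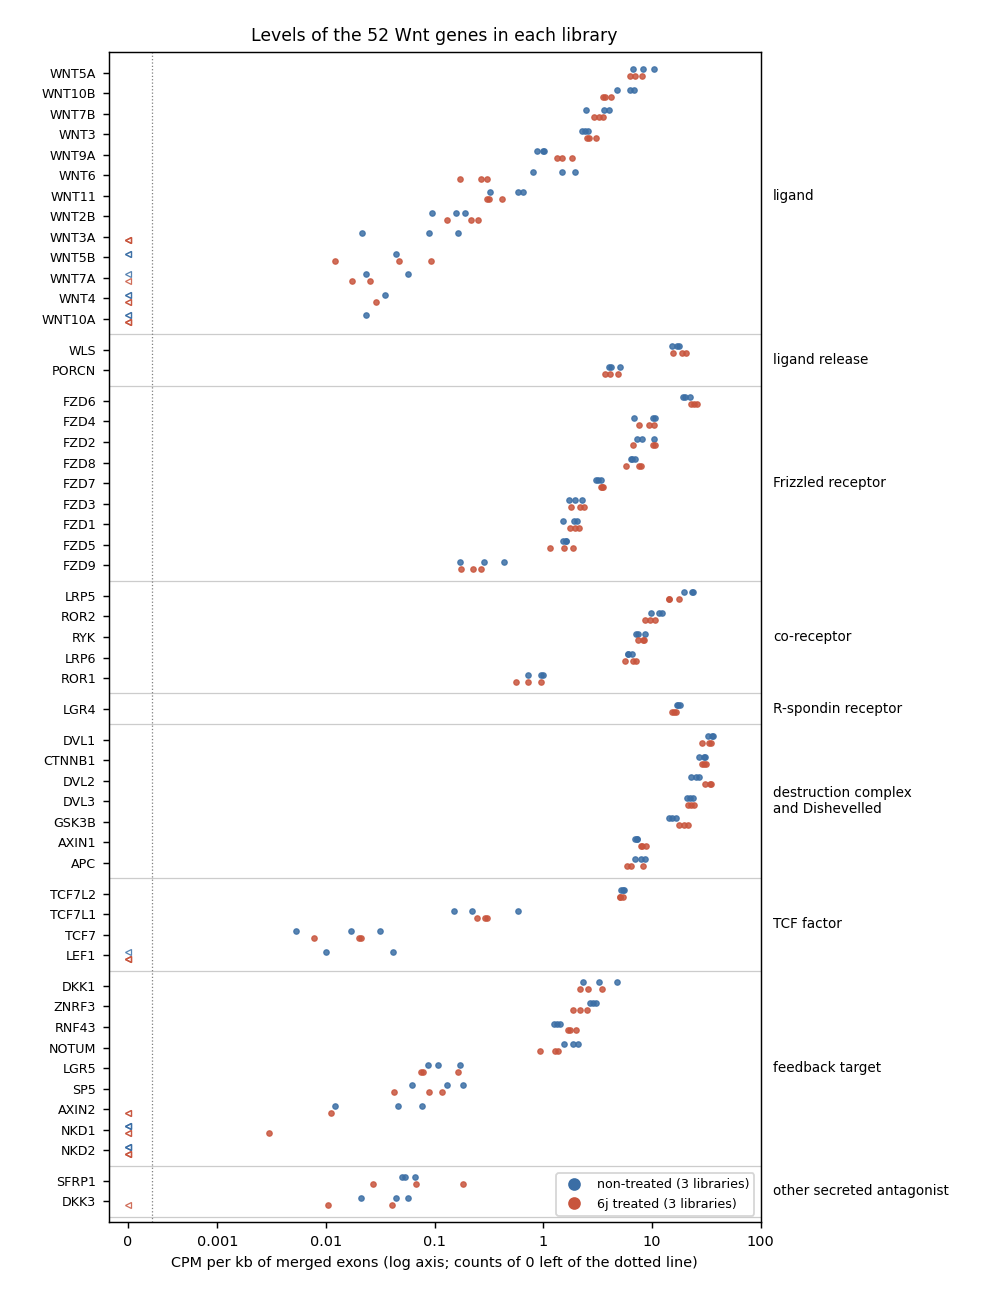
Level of each of the 52 genes in each library, in CPM per kb of merged exons on a log axis (blue, 3 non-treated libraries; red, 3 6j treated libraries; open triangles left of the dotted line, counts of 0), ordered by role. Dishevelled, β-catenin and GSK3B genes lie above 10, as do LRP5, FZD6, LGR4 and WLS, whereas APC and AXIN1 lie below 10. No feedback target reaches 10, and AXIN2, NKD1 and NKD2 lie at or near 0.

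Across the 40 genes tested, 2 were called DEGs, defined as rows with a Benjamini-Hochberg adjusted p under 0.05 in edgeR's quasi-likelihood test and a fold change above 1.5. Both were ligands and both fell. Over all 15957 rows tested 574 were DEGs, or 3.60% (2.48% higher and 1.12% lower), so that a share of this size among 40 genes is near the background. At the same adjusted p with no fold threshold 4 of the 40 passed (1 higher, 3 lower), against 1462 rows or 9.16% of all (4.79% higher, 4.37% lower). The libraries of the groups did not overlap for 13 of the 40 (7 higher, 6 lower), against 5064 rows or 31.7% of all (16.0% higher, 15.8% lower). By sign, 19 genes were higher and 21 lower, with a median log2 fold change of -0.03 beside 0.00 over all rows. Libraries with the same number deviated together weakly, although the labels state no pairing. With that number as a block 4 of the 40 were DEGs (NOTUM, WNT6 and WNT10B lower, WNT9A higher), against 1033 rows or 6.47% of all. DESeq2 called WNT6, WNT10B and WNT9A, 3 of the 37 of these genes to which it gave an adjusted p (FZD9, LGR5 and SFRP1 had none), against 774 rows or 5.55% of the 13937 given an adjusted p.

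**Figure D2:**
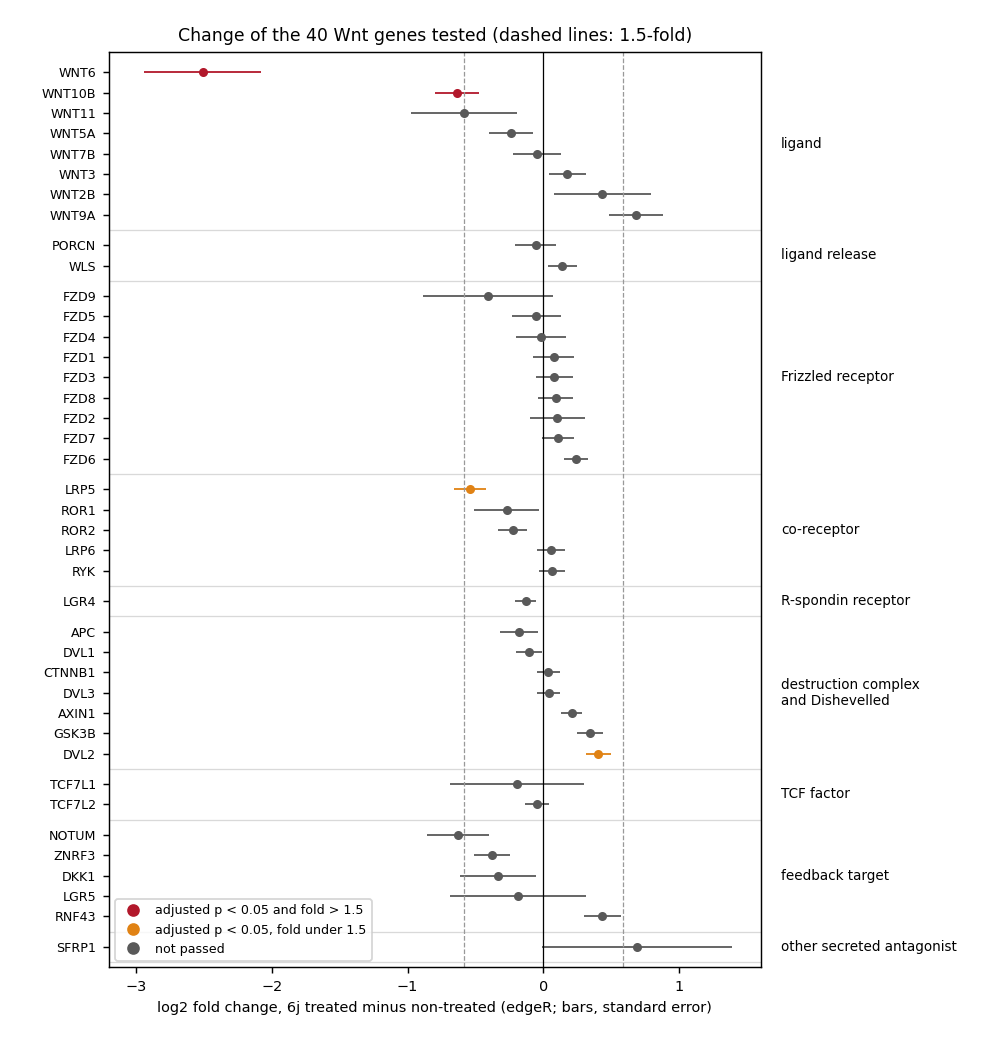
The log2 fold change of each of the 40 tested genes (6j treated minus non-treated; bars, standard error from edgeR, 3 libraries per group), ordered by role. WNT6 at -2.51 stands apart from the other 39 genes, which lie between -0.64 and 0.69.

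Among the ligands, 8 of 13 were tested. WNT6 and WNT10B fell, while the ligand highest per length, WNT5A, did not pass, and the ligands as a role did not move in 1 direction: 3 were higher and 5 lower, with a median log2 fold change of -0.14. WNT6 (ENSG00000115596; GRCh38 chr2:218859821-218874233, plus strand) encodes a ligand usually placed in the β-catenin branch. Its level was 2.55, 1.36 and 3.33 CPM in non-treated replicates 1 to 3, from counts of 96, 43 and 116. In the 6j treated replicates it was 0.52, 0.45 and 0.29 CPM, from counts of 20, 17 and 10. Every 6j treated library was thus below every non-treated library, although the non-treated libraries themselves spread widely. Means were 2.41 ± 0.991 in non-treated and 0.420 ± 0.117 CPM in 6j treated cells (SD, n = 3 each). The log2 fold change was -2.51 (SE 0.43, edgeR adjusted p = 0.0118) or 5.69-fold, the largest change among the 40 genes. The call rested on single libraries: without non-treated replicate 1 the adjusted p was 0.0616, and without 6j treated replicate 2 it was 0.0646, with the log2 fold change between -2.79 and -2.21 whichever library was left out.

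The 250 bases before the annotated start of WNT6 (RefSeq, GRCh38.p14, chr2:218859555-218859804, plus strand) are shown because WNT6 changed most. They hold none of the letters searched for in all promoters, CTTTGAT or CTTTGAA for TCF and LEF factors and TGACGTCA for ATF and CREB factors, each on both strands.
WNT6: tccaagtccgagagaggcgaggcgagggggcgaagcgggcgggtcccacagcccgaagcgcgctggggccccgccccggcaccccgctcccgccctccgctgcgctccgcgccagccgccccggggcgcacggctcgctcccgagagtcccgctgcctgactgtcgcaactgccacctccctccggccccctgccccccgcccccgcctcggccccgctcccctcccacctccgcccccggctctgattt

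WNT10B (ENSG00000169884; chr12:48965340-48971763, minus strand), a ligand best known for holding back fat cell differentiation, was the second gene that fell. It stood at 17.9, 12.5 and 16.4 CPM in non-treated and 9.37, 9.71 and 11.03 CPM in 6j treated libraries. The groups did not overlap, with non-treated replicate 2 nearest to the 6j treated libraries. The means were 15.6 ± 2.81 and 10.0 ± 0.88 CPM (SD, n = 3 each), and the log2 fold change of -0.64 (SE 0.16, edgeR adjusted p = 0.0408) or 1.55-fold lay close to both thresholds. It was called in only 2 of the 6 fits that left out 1 library. The adjusted p was 0.173 without non-treated replicate 1, 0.110 without non-treated replicate 3, 0.0831 without 6j treated replicate 1 and 0.150 without 6j treated replicate 2.

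WNT9A (ENSG00000143816; chr1:227918656-227947898, minus strand), a ligand with roles in joint formation, was the ligand with the largest value in the other direction. It stood at 4.01, 3.96 and 3.50 CPM in non-treated and 5.83, 5.34 and 7.28 CPM in 6j treated libraries, so that all 3 treated libraries lay above all 3 controls. At a log2 fold change of 0.68 (SE 0.20) it missed the threshold with an edgeR adjusted p of 0.0613, and passed it with the replicate block (0.67, adjusted p = 0.0229) and in DESeq2 (adjusted p = 0.0306). No fit that left out 1 library called it. WNT3A, its neighbour 59153 bp away on chromosome 1, is among the genes with few counts described further on.

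WNT5A, the best known ligand of the β-catenin independent branch, was the highest ligand per length in both groups, at means of 8.40 CPM per kb in non-treated and 7.12 CPM per kb in 6j treated cells. Its levels were 49.1, 61.0 and 76.4 CPM against 46.2, 51.8 and 60.1 CPM. These ranges overlap, and the log2 fold change of -0.24 had an adjusted p of 0.407 in edgeR without the block and 0.0339 with it. WNT7B, an epithelial ligand, stood at 12.5, 18.2 and 20.1 against 14.8, 16.5 and 17.8 CPM (log2 fold change -0.05, edgeR adjusted p = 0.896). WNT3, a ligand of the β-catenin branch, stood at 10.6, 11.1 and 9.77 against 13.2, 11.3 and 11.004 CPM (0.17, edgeR adjusted p = 0.467). Neither ligand separated the groups by its test. WNT2B and WNT11 were low and their groups overlapped. WNT2B, a stromal ligand in many tissues, stood at 1.96, 1.17 and 2.38 against 1.64, 2.70 and 3.14 CPM (0.43, edgeR adjusted p = 0.490), and 21.2% of its exon length lies opposite ST7L, whose reads cannot be told apart without strand. WNT11, a ligand of cell movement, stood at 1.57, 1.40 and 0.776 against 0.755, 1.01 and 0.728 CPM (-0.58, edgeR adjusted p = 0.391). All ligands together summed to 101.0, 111 and 133 CPM in non-treated and 92.4, 99.2 and 112 CPM in 6j treated libraries, which overlap.

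The genes that release ligands did not pass the test. WLS, the transporter that carries Wnt proteins to the cell surface, stood at 75.5, 79.8 and 67.9 against 84.8, 90.9 and 70.3 CPM (log2 fold change 0.14, edgeR adjusted p = 0.468). PORCN, the acyltransferase that lipidates them, stood at 15.1, 12.5 and 12.04 against 12.4, 11.2 and 14.6 CPM (-0.06, edgeR adjusted p = 0.859). The groups overlapped for both.

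**Figure D3:**
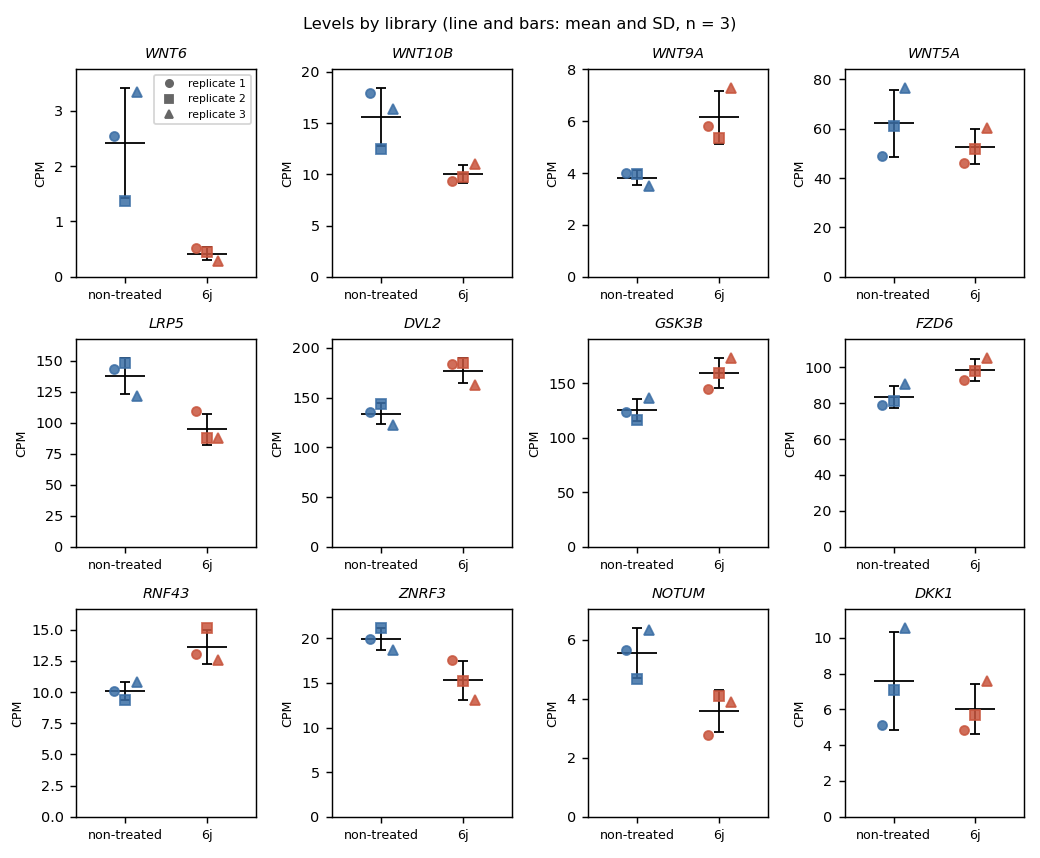
CPM of 12 ligand, receptor, relay and feedback genes in each library (symbols, replicates 1 to 3; horizontal lines and bars, mean and SD, n = 3), each panel from 0. WNT6, WNT10B, LRP5, ZNRF3 and NOTUM lie lower and WNT9A, DVL2, GSK3B, FZD6 and RNF43 higher in every 6j treated library than in every non-treated library, whereas WNT5A and DKK1 overlap. The 12 panels do not represent the tested genes as a whole. Groups did not overlap for 13 of the 40, against 31.7% of all rows.

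On the receiving side, 1 of 15 receptor genes passed on adjusted p, a share near the background of 9.16% over all rows. It was LRP5, the β-catenin co-receptor, which fell, while its paralogue LRP6 did not pass. LRP5 (ENSG00000162337; chr11:68312609-68449275, plus strand) stood at 144, 148 and 121 CPM in non-treated and 109, 87.5 and 87.3 CPM in 6j treated libraries. The groups did not overlap, at means of 138 ± 14.3 and 94.7 ± 12.6 CPM (SD, n = 3 each). The log2 fold change was -0.54 (SE 0.12, edgeR adjusted p = 0.0235), a 1.45-fold difference that stayed under the fold threshold for a DEG. It crossed that threshold without non-treated replicate 3 (-0.62, edgeR adjusted p = 0.0354) and without 6j treated replicate 1 (-0.66, edgeR adjusted p = 0.0128). The adjusted p rose to 0.109 without non-treated replicate 1, 0.0771 without non-treated replicate 2, 0.118 without 6j treated replicate 2 and 0.0536 without 6j treated replicate 3 (edgeR). LRP6 stood at 67.6, 62.4 and 62.7 against 57.6, 68.7 and 74.1 CPM, with overlapping groups (0.06, edgeR adjusted p = 0.780). Per length LRP5 went from 22.3 to 15.4 CPM per kb, against 6.21 to 6.46 for LRP6, so LRP5 remained the more abundant of the pair in both groups.

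The other receptors gave smaller values. ROR2 and ROR1, tyrosine kinase receptors of WNT5A, had log2 fold changes of -0.23 (edgeR adjusted p = 0.226, or 0.0293 with the block) and -0.27 (edgeR adjusted p = 0.531), and RYK, another kinase-like co-receptor, 0.06 (edgeR adjusted p = 0.743). LGR4, which binds R-spondins and thereby keeps Frizzled on the surface, stood at 109, 107 and 116 against 105, 101 and 97.5 CPM. Its groups did not overlap, and its log2 fold change of -0.13 did not pass (edgeR adjusted p = 0.318). Of the 9 Frizzled genes none passed, 6 were higher and 3 lower, and the median log2 fold change was 0.08. FZD6, the most abundant of them at 20.5 CPM per kb in non-treated cells, stood at 78.8, 81.1 and 90.6 against 92.8, 97.9 and 105 CPM. All treated libraries lay above all controls (0.24, SE 0.09), with an edgeR adjusted p of 0.120 without the block and 0.00976 with it. FZD4 shares 18.9% of its exon length with PRSS23 on the opposite strand, and PRSS23 fell (log2 fold change -0.77, edgeR adjusted p = 0.0190) where FZD4 gave -0.02 (edgeR adjusted p = 0.965).

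Inside the cell, DVL2 rose, and β-catenin mRNA differed by less than the replicate spread. CTNNB1, which encodes β-catenin, stood at 358, 367 and 321 CPM in non-treated and 359.6, 370.1 and 344 CPM in 6j treated libraries. The groups overlapped throughout (log2 fold change 0.04, SE 0.08, edgeR adjusted p = 0.826). β-catenin is controlled mainly through protein stability, which these data do not measure. DVL2 (ENSG00000004975; chr17:7225341-7234545, minus strand), a Dishevelled scaffold that passes the signal from Frizzled inward, stood at 135, 144 and 122 against 184, 185 and 163 CPM. The groups did not overlap, and the means of 134 ± 10.9 and 177 ± 12.5 CPM (SD, n = 3 each) gave a log2 fold change of 0.40 (SE 0.09, edgeR adjusted p = 0.0284), a 1.32-fold difference under the fold threshold. The edgeR adjusted p was 0.114 without non-treated replicate 1, 0.0866 without non-treated replicate 3, 0.0543 without 6j treated replicate 1 and 0.121 without 6j treated replicate 2. Its paralogues DVL1 (-0.11, edgeR adjusted p = 0.537) and DVL3 (0.04, edgeR adjusted p = 0.815) did not pass.

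GSK3B, the kinase that marks β-catenin for degradation, stood at 123.4, 116 and 137 CPM in non-treated and 145, 159.5 and 173 CPM in 6j treated libraries. All treated libraries lay above all controls, and the log2 fold change of 0.34 (SE 0.10) had an adjusted p of 0.0559 in edgeR, 0.00297 with the block and 0.0154 in DESeq2. AXIN1, the scaffold of the destruction complex, stood at 53.8, 54.5 and 52.2 against 65.2, 60.4 and 59.8 CPM, again without overlap (0.21, edgeR adjusted p = 0.131, or 0.0335 with the block). APC, its partner scaffold, gave -0.18 (edgeR adjusted p = 0.458). By sign 5 of the 7 genes were higher, with a median log2 fold change of 0.04. TCF7L2, the main TCF factor here at 5.35 CPM per kb, stood at 36.9, 36.6 and 34.6 against 36.6, 33.9 and 33.9 CPM and its groups overlapped (-0.05, edgeR adjusted p = 0.770). TCF7L1, a mostly repressive TCF, was low at 0.320 CPM per kb (-0.19, edgeR adjusted p = 0.850).

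Of the 9 feedback targets 5 were tested, and none passed the adjusted p without the block. With the block 3 passed: NOTUM and ZNRF3, both lower, and RNF43, higher. All rows gave 4297 such calls with the block, or 26.9%. NOTUM (ENSG00000185269; chr17:81952507-81961840, minus strand), a secreted enzyme that strips the lipid from Wnt proteins, stood at 5.65, 4.66 and 6.35 CPM in non-treated and 2.78, 4.10 and 3.90 CPM in 6j treated libraries. The groups did not overlap, at means of 5.55 ± 0.847 and 3.60 ± 0.709 CPM (SD, n = 3 each). Without the block its log2 fold change was -0.63 (SE 0.23) at an edgeR adjusted p of 0.117, and -0.64 at an adjusted p of 0.0425 with it. ZNRF3, a ligase that removes Frizzled from the surface, stood at 19.9, 21.1 and 18.6 against 17.5, 15.2 and 13.1 CPM. All treated libraries lay below all controls (-0.38, SE 0.13), with an edgeR adjusted p of 0.108 without the block and 0.0203 with it.

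RNF43, the paralogue of ZNRF3 with the same role, had the opposite sign. It stood at 10.1, 9.33 and 10.8 CPM in non-treated and 13.1, 15.1 and 12.5 CPM in 6j treated libraries, all treated libraries above all controls. The log2 fold change of 0.43 (SE 0.14) had an edgeR adjusted p of 0.0778, or 0.0288 with the block. RNF43 shares 57.6% of its exon length, 4326 bp, with AC004687.2 on the same strand, so reads there could be counted to either. AC004687.2 held 97, 81 and 90 counts in non-treated and 17, 26 and 17 in 6j treated libraries (-2.24, edgeR adjusted p = 0.00696). When the counts of both rows were added together, a choice made after seeing the data, the log2 fold change was 0.16 (edgeR adjusted p = 0.481).

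DKK1, a secreted antagonist that blocks LRP5 and LRP6, stood at 5.15, 7.11 and 10.5 CPM in non-treated and 4.84, 5.69 and 7.57 CPM in 6j treated libraries. The spread within each group was wide, the groups overlapped, and the log2 fold change of -0.33 (SE 0.28) had an edgeR adjusted p of 0.504. LGR5, an R-spondin receptor and stem cell marker, stood at 0.557, 0.888 and 0.460 against 0.859, 0.397 and 0.408 CPM (-0.19, edgeR adjusted p = 0.860). SFRP1, a secreted Wnt-binding antagonist grouped apart from the feedback targets, stood at 0.239, 0.254 and 0.316 against 0.130, 0.317 and 0.873 CPM, with 6j treated replicate 3 alone above all others (0.69, SE 0.70, edgeR adjusted p = 0.589).

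The promoters of the feedback genes SP5 and DKK1 are shown because among the 47 promoters matched to 37 of the 52 genes they alone hold the TCF/LEF letters, CTTTGAT or CTTTGAA on either strand. Of all 35116 promoters in the RefSeq set for GRCh38.p14 (windows of 300 bases around a start), 6.86% hold at least 1 of these, against 4.26% of the 47. SP5, a zinc finger repressor induced by β-catenin, has 3 matches at 148, 109 and 84 bases before its start, a number reached or passed in 9 of the 35116 promoters, or 0.0256%. DKK1 has 1 match, 95 bases before its start. The sequences are the 250 bases before the start of SP5 (chr2:170715087-170715336, plus strand) and of DKK1 (chr10:52314031-52314280, plus strand), with the matches in capitals; TTCAAAG is CTTTGAA read on the other strand. A match is a description of letters and does not show binding.
SP5: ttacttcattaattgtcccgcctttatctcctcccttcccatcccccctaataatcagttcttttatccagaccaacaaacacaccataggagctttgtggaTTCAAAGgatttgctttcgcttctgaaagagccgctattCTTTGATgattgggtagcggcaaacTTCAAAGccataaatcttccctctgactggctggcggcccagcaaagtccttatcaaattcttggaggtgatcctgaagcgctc
DKK1: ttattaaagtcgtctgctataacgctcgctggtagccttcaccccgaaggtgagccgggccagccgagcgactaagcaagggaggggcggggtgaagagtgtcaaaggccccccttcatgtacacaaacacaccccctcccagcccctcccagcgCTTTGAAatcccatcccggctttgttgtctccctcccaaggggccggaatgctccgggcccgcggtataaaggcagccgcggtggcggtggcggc

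Set against each other, the feedback targets had a median log2 fold change of -0.33 over 5 genes (1 higher, 4 lower) and the ligands a median of -0.14 over 8 genes (3 higher, 5 lower). The median over all rows was 0.00. The difference of the medians, feedback minus ligand, was -0.19, smaller than the pooled SD of 0.22 between single libraries. That SD is not an error of the difference, which was not tested, and it came mostly from the treated libraries. Library by library, on log2 CPM relative to the non-treated mean of each gene, the difference of the medians was -0.10, -0.06 and -0.08 in non-treated and 0.10, -0.26 and -0.52 in 6j treated libraries. The treated libraries thus lay on both sides of the controls, with 6j treated replicate 3 lowest. When all genes with any count were used, on log2 CPM with a prior count of 2, the medians were -0.34 for feedback targets and -0.22 for ligands. Of the ligands 2 of 8 tested were DEGs and of the feedback targets 0 of 5 in edgeR, beside 3.60% of all rows. Of the 5 feedback targets 3 had an unadjusted edgeR p under 0.05, against 4175 of all 15957 rows tested. DESeq2 called 0 of the 4 to which it gave an adjusted p, beside 5.55% of all rows given one. With the block 3 of 8 ligands and 1 of 5 feedback targets were DEGs, beside 6.47%. With so few genes a count of 0 is near the background, and the difference of the shares was not tested.

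The 12 genes that did not pass the filter included AXIN2, WNT3A and LEF1, and their counts were small. AXIN2 held 9, 2 and 14 counts in the non-treated and 0, 0 and 2 in the 6j treated libraries, 25 against 2 in all. The ratio of 6j treated to non-treated, scaled for depth, was 0.0753 (exact 95% interval 0.00864 to 0.302), an interval that covers counting error only. In an edgeR fit without the filter AXIN2 had an unadjusted p of 0.0577 and an adjusted p of 0.274, and the lowest control equalled the highest treated library. WNT3A, a ligand of the β-catenin branch, held 18, 2 and 9 counts against 0, 0 and 0. With a floor of 3 counts in place of 0 over the whole treated group, WNT3A came out 10.3-fold lower. That value is a bound set by the floor, not a measured fold, and leaves out the counting error of the controls. In edgeR without the filter WNT3A had an unadjusted p of 0.00667 and an adjusted p of 0.0728. LEF1, a TCF family factor and itself a target, held 2, 7 and 0 against 0, 0 and 0 counts. The same floor gave a bound of 3.19-fold lower for LEF1 (edgeR without the filter, unadjusted p = 0.0834, adjusted p = 0.333). None of these 3 genes passed the adjusted p, and at this depth their differences could not be established.

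The remaining low genes showed no common direction. SP5 held 10, 4 and 13 counts against 7, 9 and 3 (ratio 0.662, exact 95% interval 0.348 to 1.24). TCF7, the TCF factor of lymphocytes, held 2, 10 and 6 against 3, 8 and 7. WNT5B, a ligand close in sequence to WNT5A, held 0, 6 and 0 against 2, 15 and 7 (ratio 3.76, exact 95% interval 1.498 to 11.3). DKK3, a Dickkopf family member, held 4, 7 and 10 against 0, 2 and 7 (ratio 0.403, exact 95% interval 0.163 to 0.918). The groups overlapped for all 4. WNT7A held 4, 0 and 9 against 0, 3 and 4, and WNT4 held 6, 0 and 0 against 5, 0 and 0. WNT10A, which lies 6130 bp from WNT6 on chromosome 2, had 3 counts in non-treated replicate 1 and none elsewhere. NKD1, an inhibitor of Dishevelled and a common β-catenin target, had 2 counts in 6j treated replicate 1 and none elsewhere, and NKD2 had none in any library, where a count of 0 in every library of a group allows up to 0.0288 CPM in non-treated and 0.0271 CPM in 6j treated cells.

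**Figure D4:**
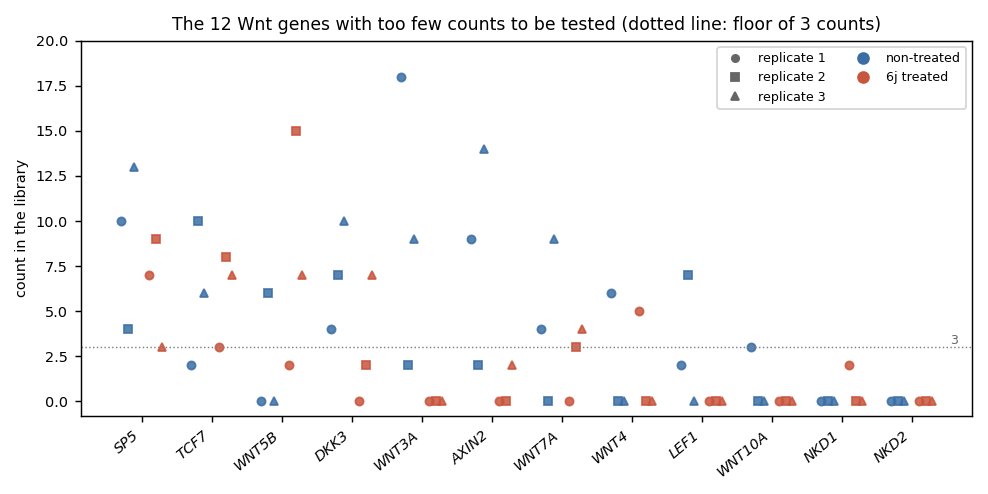
Counts of the 12 genes that did not pass the filter in each library (blue, non-treated; red, 6j treated; symbols, replicates 1 to 3; dotted line, floor of 3 counts). No count exceeds 18, and AXIN2, WNT3A and LEF1 lie at 0 in all 6j treated libraries except for 2 counts of AXIN2 in replicate 3.

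The rest of the pathway, 62 further Wnt components written from general knowledge, held 44 tested genes and no DEG in edgeR, with or without the block, against 3.60% of all rows, and 0 in DESeq2. An unadjusted edgeR p under 0.05 was found for 15 of them, against 4175 of all 15957 rows tested. On adjusted p alone 6 passed, 2 higher and 4 lower, against 9.16% of all rows (4.79% higher, 4.37% lower). The median log2 fold change over the 44 was -0.08. The 3 with the smallest p were TLE3, a Groucho corepressor of TCF factors (log2 fold change -0.46, edgeR adjusted p = 0.0167), TRABD2A, a protease that cleaves Wnt proteins (-0.43, edgeR adjusted p = 0.0190), and TNKS, the tankyrase that marks AXIN for degradation (0.39, edgeR adjusted p = 0.0346).

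Among 23 further genes known as β-catenin targets, 14 were tested, 7 were higher and 7 lower, and 2 were DEGs, both lower, against 3.60% of all rows (1.12% lower). EPHB2, an ephrin receptor, stood at 30.7, 29.4 and 21.5 CPM in non-treated and 14.9, 13.4 and 10.25 CPM in 6j treated libraries (log2 fold change -1.08, SE 0.18, edgeR adjusted p = 0.0113). ID2, an inhibitor of basic helix-loop-helix factors, stood at 48.0, 49.1 and 49.2 against 34.0, 24.3 and 28.1 CPM (-0.76, SE 0.12, edgeR adjusted p = 0.0109). The groups overlapped for neither gene, but the number of DEGs on this list was 0 without non-treated replicate 1 and 1 without 6j treated replicate 2. CCND1, which encodes cyclin D1, stood at 136, 125 and 134 against 98.7, 98.1 and 111 CPM and passed on adjusted p alone (-0.36, SE 0.08, edgeR adjusted p = 0.0307), which made 3 of the 14 that did so, against 9.16% of all rows. The largest value upward among the 14 was that of RNASE4, whose groups did not overlap (0.81, SE 0.30, edgeR adjusted p = 0.125). It was a DEG with the block (0.83, adjusted p = 0.00691). RNASE4 shares 53.3% of its exon length with AL163636.2 on the same strand. The median over the 14 was -0.05, and these targets also answer to other pathways.

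**Figure D5:**
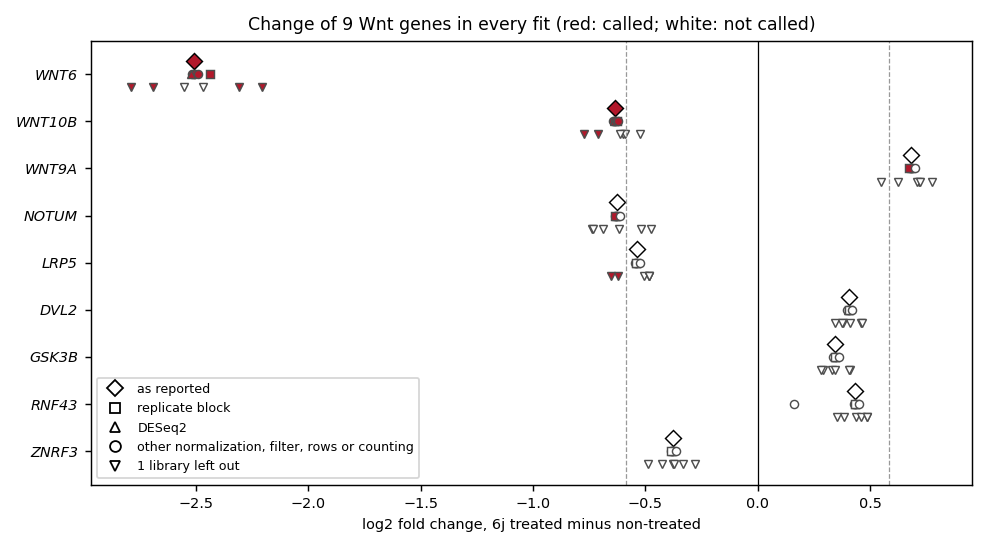
The log2 fold change of 9 genes under every setting tried (diamonds, as reported; squares, replicate block; upward triangles, DESeq2; circles, other normalization, filter, rows or counting; downward triangles, 1 library left out; red, called a DEG; white, not called; dashed lines, 1.5-fold). WNT6 stays between -2.79 and -2.21 but loses its call in 2 of the 6 fits that leave out a library, and WNT9A and NOTUM are called only where the marker is red.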

How the data were processed

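RNA of MHCC-97H cells was sequenced from 3 non-treated and 3 6j treated libraries. The authors deposited 1 table of counts per gene, whole numbers that were not normalized. The submitters' processing notes name HISAT2, StringTie and the genome build GRCh38. The counting program, its annotation and its use of strand are not given in the sources used here, and each library held fewer values of 1 (142 to 175 rows) than of 2 (557 to 692 rows), so some counts may be rounded estimates. New genes made up 5471 of the 25445 rows, and 3354 rows were at 0 throughout.

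The deposited counts were tested with edgeR 4.0.16 (R 4.3.3), using TMM factors, filterByExpr with a minimum count of 10, and the robust quasi-likelihood F test with no covariate. Benjamini-Hochberg adjustment covered all 15957 rows that passed. DEGs had to pass an adjusted p of 0.05 and 1.5-fold. The study used DESeq2 with the same fold and a p of 0.05, and its text does not say whether that p was adjusted. Log2 fold changes are 6j treated minus non-treated. The fit was first run on simulated counts. These had no replicate effect and only true changes above 1.5-fold, so they do not bear on the block or on smaller changes. The residuals of same-numbered libraries correlated at 0.171, 0.180 and 0.312 and those of differently numbered ones at -0.231 to 0.0775. A fit with the replicate number as a block was therefore also made. The labels state no pairing, so this block was chosen from these same data. Other alternatives were RLE and upper quartile factors, no filter, DESeq2 1.42.0, Ensembl rows only, no fold threshold, and each library left out in turn.

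Exon lengths, overlaps and coordinates came from GENCODE version 29 (GRCh38), which matched all 19974 Ensembl identifiers, and promoters from RefSeq (GRCh38.p14). Ratios of small counts carry exact binomial (Clopper-Pearson) intervals. Only counting error is covered by these intervals and by the floors. The 52 genes and the lists of other pathway genes and markers were chosen with earlier results of these data known. All 52 could be named. Values in every library were given for genes called with or without the block, for tested ligands and feedback targets, and for the gene with the smallest p of each other role. Of the other lists, DEGs and the 3 genes with the smallest p were named, and RNASE4, a DEG with the block, was added after its value was seen. Other values given by library, and those of low genes, were chosen after they were seen.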

Additional observations from a re-analysis of the deposited data

How the results depend on the processing

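The number of Wnt genes called, 2 of 40, was also 2 with RLE factors, upper quartile factors, no filter and Ensembl rows only, and 3 of 37 in DESeq2, which added WNT9A. It was 4 with the replicate block (WNT6, WNT10B, WNT9A and NOTUM) and 4 with no fold threshold, and ranged from 0 to 2 when 1 library was left out, with 0 without non-treated replicate 1 and without 6j treated replicate 2. DEGs over all rows numbered 574 as reported, 1033 with the replicate block and 1462 with no fold threshold, and ranged from 186 (without non-treated replicate 1) to 772 (without 6j treated replicate 1), with 193 without 6j treated replicate 2 and 379 without non-treated replicate 3. The 2 DEGs among the further β-catenin targets ranged from 0 to 2, with 0 without non-treated replicate 1 and 1 without 6j treated replicate 2. They numbered 3 with the block, which added RNASE4 (higher), and 3 with no fold threshold, which added CCND1 (lower). The 0 among the further components ranged from 0 to 1. The cause of these shifts was not tested.

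The difference between feedback and ligand medians stayed below 0 under every alternative, from -0.41 to -0.05 when 1 library was left out. Only genes that were not called changed sign. TCF7L1 gave 0.013 with the block. When 1 library was left out, the log2 fold change ranged from -0.53 to 0.58 for TCF7L1, -0.17 to 0.052 for PORCN, -0.20 to 0.095 for FZD4, -0.23 to 0.091 for WNT7B, -0.65 to 0.13 for LGR5, -0.040 to 0.16 for FZD1, -0.017 to 0.29 for FZD2, -0.0098 to 0.19 for FZD3, -0.23 to 0.11 for FZD5, -0.024 to 0.15 for LRP6, -0.019 to 0.076 for CTNNB1, -0.0087 to 0.082 for DVL3 and -0.27 to 1.13 for SFRP1.

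With 3 libraries per group and few counts, the differences of AXIN2, WNT3A and LEF1 could not be established.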
